A study of Mus musculus with 10 samples.

Results

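The genes described here are DNA replication and repair genes, 68 of 19235 protein-coding genes in a RefSeq gene table of the mouse genome build GRCm38.p6. They were chosen by symbol: the Mcm, Orc, Gins, Rfc, Pola, Pold, Pole, Msh, Ercc, Rad, Fanc, Brca and Xrcc families, each symbol ending in its family number or letter. The rule found 81 genes, of which 7 on chromosome 8 and 6 on chromosome 11 were not analysed here. It used gene names alone and no measured value. A gene was counted as having a peak when a listed peak came within 1 kb of a gene end (the first or last base of the gene), whichever end, because the gene table gives no strand.

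The study mapped the isoforms of SET, a histone-binding protein that acts as a histone chaperone and as an inhibitor of protein phosphatase 2A. KH2 mouse embryonic stem cells, made to take up 1 transgene copy under doxycycline control, carried SETα or SETβ with an HA tag in the pBS31 vector. Proteins were fixed to each other with DSG and then to DNA with formaldehyde, and chromatin was precipitated with an antibody against the HA tag. The transgene was induced with 1 µg/ml doxycycline for 24 h in each of 4 groups of 2 libraries: SETα in SET KO cells and SETβ in SET KO cells (SETα and SETβ addback), and SETα and SETβ in cells with their own SET gene (SETα and SETβ overexpression). The cells had grown on mouse embryonic fibroblasts, which were depleted before crosslinking. The labels give each group its own cell line, and line and group cannot be told apart. The labels do not say whether replicates came from separate cultures, so a p-value measures only the spread between these libraries. Of 10 samples, the 2 uninduced SET KO samples are not analysed here, and no background from cells without the tagged protein stands beside any value. Peak lists hold no expression values, so the stem cell label was not checked against marker genes.

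DNA replication begins when the origin recognition complex, whose subunits are the Orc proteins, loads the Mcm helicase, which GINS then helps to activate. The clamp loader, built from Rfc proteins, places the sliding clamp PCNA on DNA, and polymerases alpha, delta and epsilon copy the strands. Errors and lesions are removed by mismatch repair, nucleotide excision repair, the Fanconi anaemia pathway for crosslinks between strands, homologous recombination and end joining. Many of these genes are switched on around the start of S phase by E2F factors, and embryonic stem cells, which divide quickly, express them at high levels.

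The bases before the annotated starts of 7 members are shown because their peaks span the range of the results. Xrcc5 and Xrcc4 had strong peaks in all 4 addback libraries. Pold3, Rad17 and Msh6 had peaks in both SETα addback libraries, Mcm6 had one in a single SETα addback library and Mcm3 had none in any library. Each sequence is RefSeq's for GRCm38.p6, read 5′ to 3′ on the strand of the gene, and holds those of the 250 bases before the start that lie in no gene of the table. Capitals mark every match, on either strand, to the letters of E2F (TTTGGCGC or TTTCCCGC), NF-Y (CCAAT), ETS (CCGGAAG), Sp1 (GGGCGG), NRF1 (GCGCATGCG), YY1 (AAGATGGC), CHR (TTTGAA) or CRE (TGACGTCA). Xrcc5 lies on the plus strand at chr1:72307171-72307416, Xrcc4 on the minus strand at chr13:90089609-90089666, Pold3 on the minus strand at chr7:100121503-100121752 and Rad17 on the minus strand at chr13:100651062-100651311. Msh6 lies on the plus strand at chr17:87974800-87975049, Mcm6 on the minus strand at chr1:128359706-128359955 and Mcm3 on the minus strand at chr1:20820313-20820562.
Xrcc5: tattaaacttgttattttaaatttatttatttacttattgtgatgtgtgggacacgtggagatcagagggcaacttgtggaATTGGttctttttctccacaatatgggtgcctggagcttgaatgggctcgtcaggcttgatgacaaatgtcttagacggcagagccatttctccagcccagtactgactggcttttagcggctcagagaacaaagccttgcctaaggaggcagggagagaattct
Xrcc4: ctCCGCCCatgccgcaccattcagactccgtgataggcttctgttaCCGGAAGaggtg
Pold3: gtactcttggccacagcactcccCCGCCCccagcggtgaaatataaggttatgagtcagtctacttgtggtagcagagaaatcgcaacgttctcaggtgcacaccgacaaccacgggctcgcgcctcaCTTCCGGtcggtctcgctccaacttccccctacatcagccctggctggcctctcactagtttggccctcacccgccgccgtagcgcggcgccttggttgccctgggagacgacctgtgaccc
Rad17: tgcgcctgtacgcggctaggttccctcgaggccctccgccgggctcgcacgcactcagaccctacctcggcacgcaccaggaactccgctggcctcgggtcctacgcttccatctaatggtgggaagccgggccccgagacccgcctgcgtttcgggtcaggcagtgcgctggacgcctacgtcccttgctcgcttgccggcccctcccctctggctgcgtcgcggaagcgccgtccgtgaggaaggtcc
Msh6: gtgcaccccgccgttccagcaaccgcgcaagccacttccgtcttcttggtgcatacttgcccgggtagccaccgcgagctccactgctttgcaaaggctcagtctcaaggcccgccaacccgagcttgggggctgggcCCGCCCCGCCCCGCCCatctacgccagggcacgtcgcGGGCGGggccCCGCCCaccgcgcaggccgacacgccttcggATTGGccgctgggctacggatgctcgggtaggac
Mcm6: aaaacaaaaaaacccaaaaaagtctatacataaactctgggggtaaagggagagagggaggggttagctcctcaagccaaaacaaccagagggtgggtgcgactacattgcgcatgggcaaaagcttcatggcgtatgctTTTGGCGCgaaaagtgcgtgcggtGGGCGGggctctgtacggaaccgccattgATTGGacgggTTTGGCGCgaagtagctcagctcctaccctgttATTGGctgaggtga
Mcm3: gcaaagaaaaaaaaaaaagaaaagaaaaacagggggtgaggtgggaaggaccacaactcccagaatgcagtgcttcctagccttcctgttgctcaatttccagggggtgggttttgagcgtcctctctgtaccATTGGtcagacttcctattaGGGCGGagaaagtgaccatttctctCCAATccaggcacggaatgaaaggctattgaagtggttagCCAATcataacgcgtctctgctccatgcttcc
The 58 bases of Xrcc4 are all that separates it from its divergent neighbour Tmem167, and they hold an ETS match 12 bases before the start. Mcm6 holds E2F matches 110 and 47 bases before its start. Rad17 holds no match to any of these letters in the stretch shown, while Msh6 holds 5 Sp1 matches. A match is a string of letters and not a binding site.

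A starting window of 300 bases, from 250 before to 50 after the start, was found for 55 of the 68 members (80.9%), and for 15496 of all protein-coding genes. The E2F letters TTTGGCGC stood in 6 of the 55 member windows (10.9%, against 0.652% of all windows) and TTTCCCGC in 12 (21.8%, against 1.46%). Matches for CCAAT stood in 58.2% of member windows and 39.0% of all windows, CCGGAAG in 30.9% and 11.7%, and GGGCGG in 70.9% and 45.7%. The letters TTTGAA were rarer among members, at 5.45% against 16.9%. GCGCATGCG stood in 3.64% of member windows and 2.34% of all, TGACGTCA in 3.64% and 2.25%, and AAGATGGC in 1.82% and 3.07%. Member windows were richer in CpG, with a median observed-to-expected ratio of 0.883 against 0.561 for all genes, and a median GC content of 61.3% against 56.0%. Among the 18 members with no peak at an end of the gene table in any library, 17 had a window, with medians of 0.766 and 60.3%. Of these, Xrcc6, Orc1, Orc4, Rfc1 and Fancc did have a peak within 1 kb of the RefSeq start, where the window lies. TTTCCCGC stood in 5 of those 17 windows, those of Mcm3, Xrcc6, Orc3, Brca2 and Pold1. Apart from Xrcc6, these had no peak at a gene end or RefSeq start, so members without a peak there also carried E2F letters.

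The number of peaks differed widely between lists. The SETα addback lists held 22176 and 15701 peaks, the SETβ addback lists 2518 and 9768, the SETα overexpression lists 4807 and 7675 and the SETβ overexpression lists 1343 and 2869. A list per group of peaks that passed the authors' comparison of replicates by irreproducible discovery rate (IDR) held 530, 485, 127 and 101 peaks in the same order. Of the SETα overexpression peaks, 70.4% and 63.9% lay on chromosome 6, against 5.97% to 9.2% in the other 6 libraries. No lists of 2 libraries were identical.

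More members had a SETα peak than a SETβ peak in SET KO cells, and almost none had a peak in cells with their own SET. In SETα addback, 37 members (54.4%, Wilson 95% interval 42.7% to 65.7%) and 39 members (57.4%, 45.5% to 68.4%) had a peak, against 34.3% and 31.8% of all protein-coding genes. In SETβ addback, 8 (11.8%, 6.08% to 21.5%) and 11 (16.2%, 9.28% to 26.7%) had one, against 8.41% and 18.4% of all genes. The SETα share of members thus lay above that of all genes in both replicates, while the SETβ share lay above it in replicate 1 and below it in replicate 2. In each of the 4 overexpression libraries a single member had a peak (1.47%, 0.26% to 7.87%), beside 0.983% and 1.9% of all genes with SETα and 0.338% and 1.85% with SETβ. The intervals cover counting error over genes only, and the read depth behind the lists is unknown.

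**Figure D1:**
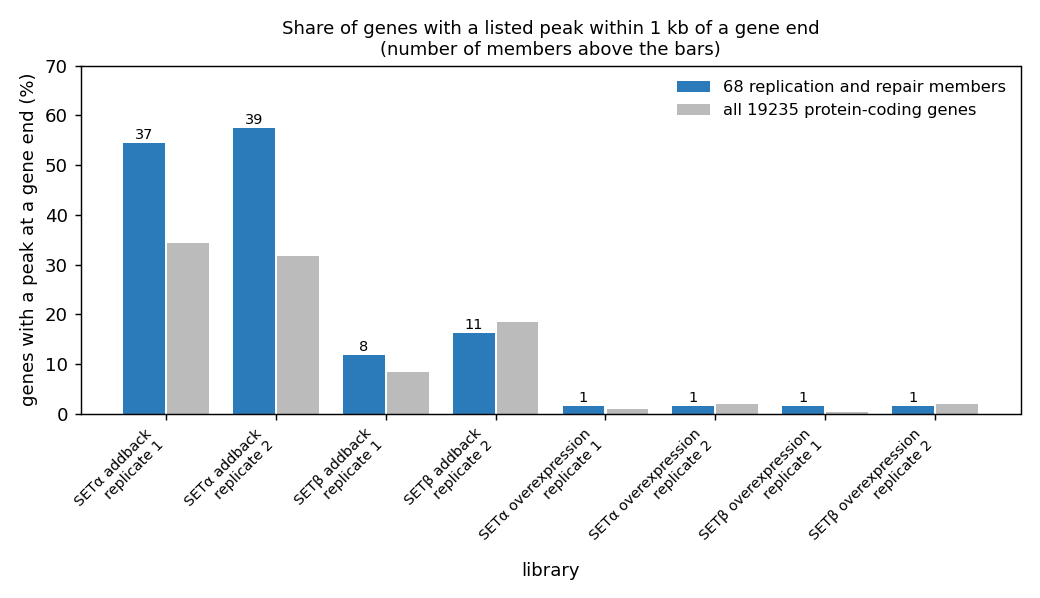
Share of genes with a listed peak within 1 kb of a gene end (y axis, percent) in each of the 8 libraries, for the 68 members (blue, number of genes above the bar) and all 19235 protein-coding genes (grey). The SETα addback bars of members stand at 54.4% and 57.4% over grey bars of 34.3% and 31.8%, the SETβ addback bars at 11.8% and 16.2%, and every overexpression bar of members at 1.47%.

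The mean share of members was 55.9% ± 2.08 (SD, n = 2) in SETα addback, 14.0% ± 3.12 in SETβ addback and 1.47% ± 0 in either overexpression group. SET KO libraries exceeded SET wild type libraries by 33.5 percentage points (34.9% against 1.47%), with a spread between replicates of 1.87 points (exact two-sided permutation test of background labels within isoforms, p = 0.0556, the smallest that 36 arrangements allow). The difference was 54.4 points with SETα and 12.5 points with SETβ. For all protein-coding genes it was 21.95 points, with 31.61 for SETα and 12.3 for SETβ, so the SETβ difference of members was near that of all genes. SETα exceeded SETβ by 21.0 points (28.7% against 7.72%), a difference of 41.9 points among addback libraries and of 0 points among overexpression libraries. All 4 overexpression libraries had the same share, so isoform labels could matter only among the addback libraries, and the exact permutation test gave p = 0.333. For all genes the isoform difference was 10.0 points, with 19.66 among addback libraries and 0.35 among overexpression libraries. This exact test could not reach 0.05 with 2 libraries a group, so both differences are set beside the spread between replicates. They exceeded it, but the SD of 0 in both overexpression groups lowers that spread. The lists also differed in length, and at equal length the isoform difference was 1.1 points.

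The isoform difference of members narrowed when every list was brought to the same length. With the strongest 1343 peaks of each library, the number in the smallest list, 7 and 6 members had a peak in SETα addback and 5 and 4 in SETβ addback. The overexpression libraries then had 1 and 0 with SETα (0.535% and 0.645% of all genes) and 1 and 1 with SETβ (0.338% and 0.681%). The isoform difference fell to 1.1 points and the background difference to 6.99 points. All genes at that length had shares of 4.65% and 5.77% in SETα addback and 5.39% and 4.96% in SETβ addback. Most member peaks of the long SETα lists thus ranked below the strongest 1343, and the members left in all 4 addback libraries were Rad54l2, Xrcc5, Xrcc4 and Ercc1. A q of at most 0.05 was reached at 27 and 32 members in SETα addback (22.0% and 24.2% of all genes) and at 4 and 5 members in SETβ addback (4.85% and 7.39% of all genes).

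CpG content moved with the presence of a peak. Of all genes with a CpG ratio of at least 0.6 in the starting window, a split chosen after seeing the data, 55.6% and 53.3% had a SETα addback peak, against 15.1% and 13.1% of those under it. Of members with a window, 80.0% were at or above 0.6, against 47.3% of all genes. The 44 members at or above it had shares of 54.5% and 59.1%, near those of all genes in the same class. In SETβ addback those members had 9.09% and 13.6%, where all genes of the class had 15.1% and 31.1%. Of the 11 members under the split, 5 and 4 had a SETα addback peak (45.5% and 36.4%, against 15.1% and 13.1% of all genes) and 2 in each library a SETβ addback peak (18.2%, against 2.56% and 7.11%). Among CpG-rich starts the SETα share of members thus lay just below that of all genes in replicate 1 and above it in replicate 2, and both libraries had a peak at 45.5% of members against 38.1% of all genes. Under the split members lay above all genes with either isoform, over only 11 members.

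A close neighbour was also more common among members. Another protein-coding gene had an end within 1 kb of an end of 32 members (47.1%), against 23.7% of all genes. Both SETα addback libraries had a peak at 15 of those 32 members (46.9%, against 38.2% of all genes with a neighbour) and at 13 of the 36 without one (36.1%, against 16.9%). With SETβ the members with a neighbour lay below all such genes: 1 or both SETβ addback libraries had a peak at 8 of the 32 (25.0%, against 34.2%), and at 6 of the 36 without one (16.7%, against 16.8%). Which gene of a pair a shared peak belongs to was not tested.

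Among members, the overlap of replicates was larger in SETα than in SETβ addback, a difference that was not tested. The SETα addback libraries had 28 members in common (41.2%, against 22.0% of all genes). This is 75.7% of the first list and 71.8% of the second, beside 64.1% and 69.0% over all genes. The SETβ addback libraries shared 5 members (7.35%, against 5.85% of all genes). This is 62.5% and 45.5%, beside 69.6% and 31.8% over all genes. Over all genes the first SETβ list thus overlapped more than the first SETα list, and the second less. In SETα overexpression the shared member was Rad52 (1.47%, against 0.879% of all genes), and in SETβ overexpression none was shared (0 of 68, with a Wilson upper bound of 5.35%, against 0.187% of all genes). All 5 members shared by the SETβ libraries were among the 28 shared by the SETα libraries, as were 88.0% of all genes shared by the SETβ libraries. The 14 members with a peak in either SETβ addback library and the 48 in either SETα addback library had 12 in common, 85.7% of the former and 25.0% of the latter, beside 84.0% and 39.9% over all genes. These counts are 20.6% and 70.6% of members, against 20.9% and 44.1% of all genes, so the SETβ count was near the share of all genes.

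**Figure D2:**
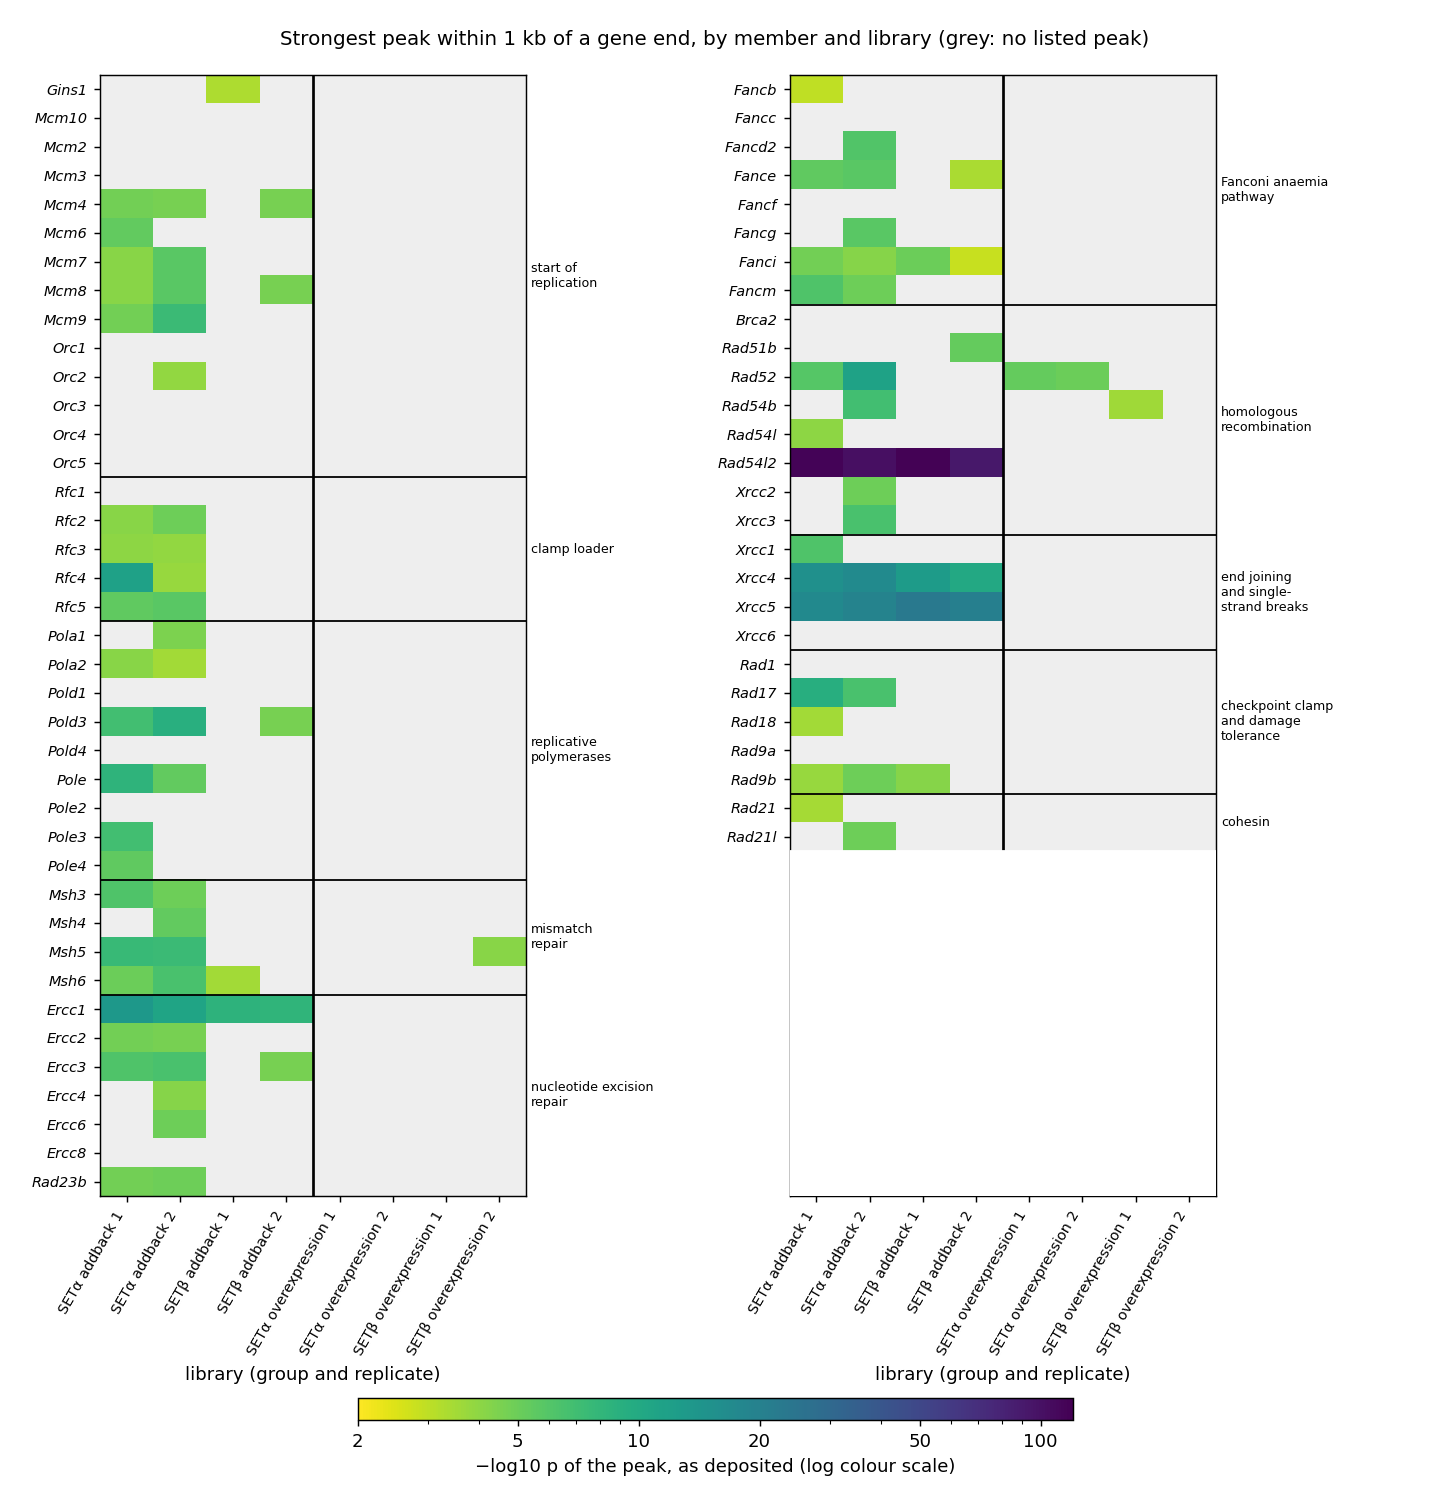
Strongest peak within 1 kb of a gene end for 66 of the 68 members (y axis, grouped by role) in each of the 8 libraries (x axis). Colour gives the deposited −log10 p on a log scale and grey means no listed peak. Rad54l2 stands apart with values from 92.4 to 118 in the 4 addback libraries, Xrcc5, Xrcc4 and Ercc1 follow, and the overexpression columns are grey but for Rad52, Rad54b and Msh5.

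Peaks in all 4 addback libraries were found at 5 members: Rad54l2, Xrcc5, Xrcc4, Ercc1 and Fanci (7.35%, against 5.15% of all genes). The first 4 were also the members in the IDR lists of SETα and of SETβ addback, 4 of 68 in each (5.88%, 2.31% to 14.2%, against 2.78% and 2.62% of all genes). No member was in the IDR list of either overexpression group, with the same upper bound of 5.35%, beside 0.0676% and 0.026% of all genes. A peak's −log10 p, fold and rank are the authors' values and compare only within a list.

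The strongest peak at any member was that of Rad54l2, a SNF2-family ATPase related to RAD54 and known as a partner of the androgen receptor, on chromosome 9. Its −log10 p was 114 and 101 in SETα addback and 118 and 92.4 in SETβ addback. These peaks ranked 3 of 22176, 5 of 15701, 8 of 2518 and 9 of 9768, so the site was near the top of every addback list. The fold enrichment over local background was 25.4, 27.3, 16.8 and 15.6. The summits lay 18, 62, 11 and 27 bp outside the gene end at position 106789213, within 51 bp of each other. No overexpression library listed a peak at either end of this gene. The strand of Rad54l2 is not in the table used, so whether that end is its start was not tested.

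Xrcc5 and Xrcc4 act in non-homologous end joining, XRCC5 as the larger subunit of the Ku heterodimer that binds broken ends and XRCC4 as the scaffold of DNA ligase IV. Xrcc5 (chromosome 1) had a −log10 p of 17.3 and 19.2 in SETα addback and of 23.0 and 20.4 in SETβ addback, at ranks 395, 373, 308 and 258. Its summits lay 123, 56, 69 and 79 bp after the start, and no other coding gene ended within 1 kb of the summit. Its starting window is poor in CpG for a member, with a ratio of 0.527 and a GC content of 48.0%. Xrcc4 (chromosome 13) had values of 15.4 and 17.0 in SETα addback and of 12.6 and 10.1 in SETβ addback, at ranks 456, 421, 430 and 459. Its summits lay 111, 123, 149 and 98 bp before the start, inside Tmem167, 39 to 90 bp from the end of that gene. The peaks covered the 58 bases shown for Xrcc4, which lie between the ends of both genes. Both end-joining genes thus had a peak with either isoform in every addback library, at ranks that compare only within their own list.

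Ercc1, whose protein is the partner of the XPF nuclease in nucleotide excision repair and crosslink repair, lies on chromosome 7. Its −log10 p was 13.5 and 10.9 in SETα addback and 8.49 and 8.18 in SETβ addback, at ranks 542, 688, 552 and 591. The summits lay 147, 24, 81 and 61 bp after the RefSeq start, which is itself 1004 bp inside the end of the gene table. Fanci, whose protein pairs with FANCD2 in the ID complex that is monoubiquitinated at stalled forks, had weaker peaks on chromosome 7, with values of 4.77 and 4.2 in SETα addback and 5.05 and 2.83 in SETβ addback. Its summits lay 780 bp after, 525 bp before, 1065 bp after and 575 bp after the start, so the 4 peaks did not mark a single position. Only the SETα replicate 1 peak of Fanci had a q of at most 0.05.

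By the ends of the gene table, the members with peaks in both SETα addback libraries and in neither SETβ addback library numbered 16 (23.5%, against 10.1% of all genes), and none had the opposite pattern (0 of 68, upper bound 5.35%, against 0.187% of all genes). Of the 16, 2 (Rad52 and Fancm) had SETβ addback peaks near their RefSeq starts, which lie inside the table's ends. The SETβ lists were shorter, and at equal length the difference was as given above. Among the 10 strongest of the 16 were Rfc4, Rad52, Rad17, Pole, Msh5, Mcm9, Msh3, Fancm and Rfc5. Rfc4, a clamp loader subunit, had values of 11.6 and 3.76, but at opposite ends of the gene: 758 bp beyond its far end, toward Eif4a2, in replicate 1 and 469 bp before its start in replicate 2. Rad17, which loads the checkpoint clamp at damaged DNA, had 9.22 and 6.5 next to Ak6, with summits 18 and 490 bp from an end of that gene. Pole, the catalytic subunit of polymerase epsilon, had 8.41 and 5.33, next to Pxmp2.

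Among the mismatch repair genes in that set, Msh5, which acts at meiotic crossovers, had 7.63 and 7.33. Msh3, whose protein recognises larger loops, had 6.15 and 4.93. Mcm9, a helicase paralogue with a role in recombination, had 4.77 and 7.33 with summits 26 and 12 bp before the start. Fancm, a translocase that recognises stalled forks, had 6.15 and 4.93 near Fkbp3. Its RefSeq start lies 1493 bp inside the table's end, and peaks there had 4.77 and 6.5 in SETα addback and 3.71 in SETβ addback replicate 2, so Fancm is in the set only by the table's ends. Rfc5, a clamp loader subunit, had 5.44 and 5.7. Values of this size ranked well below those of Xrcc5 and Xrcc4 in the same lists. The median −log10 p at members with a peak was 5.44 and 5.7 in the SETα addback libraries.

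Rad52, a mediator of strand annealing, likewise belongs to that set only by the ends of the gene table. Its −log10 p there was 5.85 and 11.3 in SETα addback, and 5.23 and 5.04 in SETα overexpression. Its RefSeq start lies 976 bp inside the table's end, and peaks just beyond the counted window had values of 3.7 and 5.34 in SETβ addback and of 7.48 and 8.95 in SETα overexpression. The last pair ranked 127 of 4807 and 164 of 7675 and formed a peak of the SETα overexpression IDR list, at rank 64 of 127. Rad52 thus had a peak near its RefSeq start in both libraries of 3 groups. It lies on chromosome 6, which held most of the SETα overexpression peaks, and the part of that chromosome in this result was not tested.

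The other peaks at members in overexpression were weak. Rad54b, a RAD54 paralogue, had a −log10 p of 3.56 in SETβ overexpression replicate 1, at rank 763 of 1343. Msh5 had 4.16 in SETβ overexpression replicate 2, at rank 1068 of 2869. Neither was listed in the other replicate, and no peak counted at a member in an overexpression library had a q of at most 0.05.

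By role, the members are given as counts, to be read against 34.3% and 31.8% of all genes with a peak in the SETα addback libraries, 22.0% in both and 44.1% in either. For SETβ addback the shares of all genes were 8.41% and 18.4%, with 20.9% in either library, and 51.7% had no peak in any library. Of the 14 genes for the start of replication, 5 and 5 had a SETα addback peak, 1 and 2 a SETβ addback peak and 7 no peak in any library, shares close to those of all genes. The 14 include Mcm8 and Mcm9, placed in this role by symbol, which had a peak in both SETα addback libraries. By the ends in the gene table, 5 of 8 Mcm genes and 1 of 5 Orc genes, Orc2 with 3.9 in SETα addback replicate 2, had a SETα addback peak. Orc1 and Orc4 had peaks in both SETα addback libraries at their RefSeq starts, and the families were not tested against each other. Mcm4 and Mcm8 had peaks in both SETα libraries and in SETβ addback replicate 2, Mcm4 with 4.77, 4.6 and 4.61 beside Prkdc and Mcm8 with 4.12, 5.7 and 4.61 beside Trmt6. Gins1, a subunit of the GINS complex, had a peak in SETβ addback replicate 1 alone, of 3.3 at rank 2373 of 2518. Of the 5 clamp loader genes, 4 had a peak in both SETα addback libraries and none in SETβ addback, beside 22.0% of all genes in both SETα libraries and 20.9% in either SETβ library. Of 9 replicative polymerase genes, 5 and 4 had a SETα addback peak and 0 and 1 a SETβ addback peak, the latter at Pold3. Pold3, an accessory subunit of polymerase delta, had 6.88 and 9.09 with SETα and 4.61 in SETβ replicate 2. These counts are too small to set the roles apart, and no difference between roles was tested.

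All 5 mismatch repair genes had a SETα addback peak in a library or both (44.1% of all genes), 4 and 5 by replicate, and Msh6 alone had a SETβ addback peak, of 3.51 in replicate 1. MSH6 takes part in binding mismatched bases, and its gene had 5.04 and 6.5 with SETα. Of 7 nucleotide excision repair genes, 4 and 6 had a SETα addback peak and 1 and 2 a SETβ addback peak. Ercc3, which encodes the XPB helicase of TFIIH, had 6.15 and 6.5 with SETα and 4.61 in SETβ replicate 2. Of 8 Fanconi anaemia genes the counts were 4 and 5 with SETα and 1 and 2 with SETβ, and Fance, a core complex subunit, had 5.44, 5.7 and, in SETβ replicate 2, 3.39. The strongest Fance peak of SETα replicate 2 lay 1041 bp beyond the far end of the gene, beside Rpl10a, and the other peaks 250 and 205 bp after its start.

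Of 9 homologous recombination genes, 4 and 5 had a SETα addback peak, but only Rad52 and Rad54l2 had it in both libraries. Rad54l2 was placed in this role by its symbol alone. Rad51b, which acts in homologous recombination, had a peak in SETβ addback replicate 2 alone, of 5.27, 937 bp before its start and 22 bp from the end of Zfyve26. Of 4 genes of end joining and single-strand break repair the counts were 3 and 2 with SETα and 2 and 2 with SETβ. Of 5 checkpoint clamp and damage tolerance genes, 3 and 2 had a SETα addback peak. Rad9b, a subunit of an alternative checkpoint clamp, had 3.79 and 4.93 and, in SETβ replicate 1, 4.24, beside Vps29. Both cohesin genes had a SETα addback peak at a gene end in 1 library each, Rad21 with 3.46 in replicate 1 and Rad21l with 4.93 in replicate 2. Over 1 kb from both ends, Rad21 also held peaks of up to 4.77 and 8.2 in SETα addback and 4.95 and 4.61 in SETβ addback. Another inner peak of Rad21 had 3.56 in SETβ overexpression replicate 2.

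**Figure D3:**
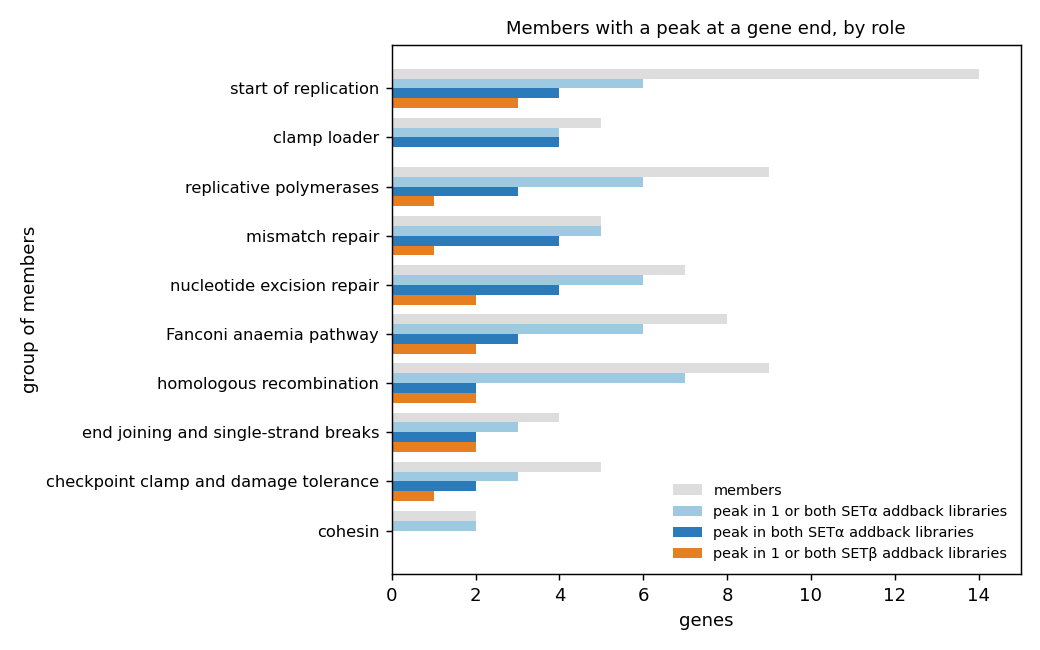
Number of members in each role (y axis, grey bars) and of those with a peak at a gene end in 1 or both SETα addback libraries (light blue), in both (dark blue) and in 1 or both SETβ addback libraries (orange). Genes for the start of replication have the most members, 14, of which 6 had a SETα addback peak, while all 5 mismatch repair genes had one, beside 44.1% of all protein-coding genes.

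No library listed a peak at 18 members (26.5%, against 51.7% of all genes). They were Mcm2, Mcm3, Mcm10, Orc1, Orc3, Orc4, Orc5, Rfc1, Pold1, Pold4, Pole2, Ercc8, Fancc, Fancf, Brca2, Xrcc6, Rad1 and Rad9a. They include genes of essential functions, such as Pold1, the catalytic subunit of polymerase delta, Mcm2 and Mcm3 of the replicative helicase, and Brca2, which acts in homologous recombination. For 5 of the 18 the RefSeq start lies over 1 kb inside the end of the gene table, and peaks stood at those starts. Xrcc6, the smaller Ku subunit, had 9.22 and 8.2 in SETα addback and 5.68 in SETβ addback replicate 2 near a start 28536 bp inside the table's end. Orc1 had 5.44 and 4.93 and Orc4 had 4.77 and 4.93 in SETα addback. Rfc1, with 5.7, and Fancc, with 3.51, had a peak in SETα addback replicate 2. The absence of a peak at these 5 genes thus held only for the ends of the gene table. The other 13 had no peak at a gene end or at a RefSeq start where one was given.

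Peaks also lay inside members, over 1 kb from both ends. In SETα addback 23 members (33.8%) and 19 (27.9%) held such a peak, against 23.0% and 16.7% of all genes, and in SETβ addback 3 (4.41%) and 14 (20.6%), against 2.52% and 13.2%. In SETα overexpression 2 (2.94%) and 5 (7.35%) held one, against 2.33% and 3.73% of all genes, and in SETβ overexpression 2 (2.94%) and 5 (7.35%), against 1.31% and 3.04%. Members were longer than all genes, with a median length of 29.6 kb against 17.4 kb, and the part of length in these shares was not tested. Among the 13 members with no peak at an end or start, 4 held an inner peak: Mcm2 with 2.47 and Pold1 with 4.12 and 4.77 in SETα addback replicate 1, Pole2 with 4.2 in SETα addback replicate 2 and Rad1 with 4.48 in SETβ addback replicate 2.

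Where a strand was given, the strongest peak of most members lay nearer the gene start. This placement was not counted over all protein-coding genes, so it is not shown to be particular to members. The nearer end was the start for 28 of 29 members in SETα addback replicate 1, 28 of 30 in replicate 2, 6 of 6 and 8 of 8 in SETβ addback. Among those nearest the start with a summit within 1500 bp of the RefSeq start, the median position was 147 bp after it in SETα addback replicate 1 and 55 bp before it in replicate 2, over 27 members each. In SETβ addback it was 75 bp after it, over 6 members, and 18.5 bp before it, over 8. The ranges ran from 751 bp before to 883 bp after in SETα replicate 1 and from 1410 bp before to 1086 bp after in replicate 2. The difference between the medians was not tested. Summits of Xrcc5 and Ercc1 fell after the start and those of Xrcc4 before it in all 4 libraries.

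**Figure D4:**
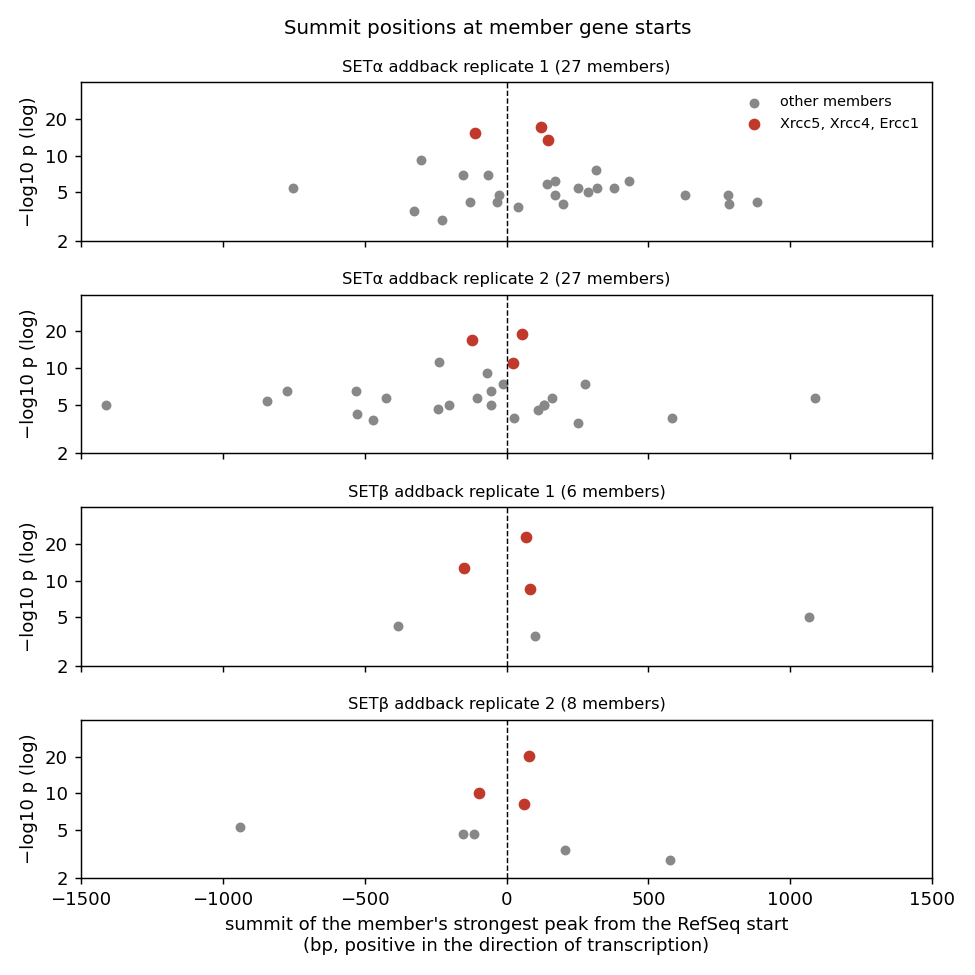
Distance of the summit of a member's strongest peak from its RefSeq start (x axis, bp, positive in the direction of transcription) against its deposited −log10 p (y axis, log scale), with a panel for each addback library. Only members with a given strand and a strongest peak nearest the gene start and within 1500 bp of the RefSeq start are drawn, so Rad54l2 is absent. Xrcc5, Xrcc4 and Ercc1 (red) lie within 149 bp of the start in every panel, and the other members drawn (grey) spread from 1410 bp before to 1086 bp after it.

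A second list of 94 replication and repair genes outside these families, such as the clamp Pcna and the kinases Atm and Atr, was counted in the same way. Of them, 77 were analysed, 15 lay on chromosomes 8 and 11 and 2 were not matched by symbol. In SETα addback 43 (55.8%) and 51 (66.2%) had a peak, against 34.3% and 31.8% of all genes, and in SETβ addback 11 (14.3%) and 21 (27.3%), against 8.41% and 18.4%. In overexpression 0 and 2 had one with SETα (0.983% and 1.9% of all genes) and 0 and 4 with SETβ (0.338% and 1.85%). Both SETα addback libraries shared 32 of them (41.6%), beside 41.2% of the members and 22.0% of all genes. The lists lay farther apart in single libraries, at 66.2% against 57.4% in SETα addback replicate 2 and 27.3% against 16.2% in SETβ addback replicate 2. In each addback IDR list 3 were present (3.9%, against 2.78% and 2.62% of all genes), Gtf2h4, Nbn and Rnaseh2b.

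Gtf2h4, a subunit of the repair and transcription factor TFIIH, had a −log10 p of 38.2 and 52.3 in SETα addback and 40.6 and 25.7 in SETβ addback. Nbn, which encodes the NBS1 subunit of the MRN complex at broken ends, had 21.4 and 31.0, and 33.9 and 23.1. Rnaseh2b, a subunit of the nuclease that removes ribonucleotides from DNA, had 9.42 and 14.2, and 16.8 and 9.84. As with Rad54l2, Xrcc5 and Xrcc4, these genes had peaks in all 4 addback libraries. Of the 3, Gtf2h4 alone had a peak in overexpression, of 3.04 in SETβ replicate 2.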

How the data were processed

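Peak lists of 8 HA ChIP-seq libraries (2 replicates in each of 4 groups) and 4 IDR lists were used. Bowtie2, MACS2 and deepTools and the build GRCm38 (mm10) are named in the submitters' processing notes, without roles. Peak caller settings, control library and read totals are not given in the sources used here. Peaks were listed for each library separately. In the deposited library lists the score is the authors' scaled −log10 p. Fold enrichment was deposited as a linear ratio to local background, and −log10 p and −log10 q were deposited as the peak caller gave them. In the deposited IDR lists the score is a scaled IDR. These values were used only to rank, filter or describe peaks within their list. Positions count from 1.

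Genes came from a RefSeq table of GRCm38.p6, and strands, starts and sequences from a RefSeq promoter table of the same build (55 of 68 members). Chromosomes 8 and 11 were left out. The members, the roles, the second list and the motifs were chosen with earlier results of these data known. Genes named were those in an IDR list, those with a peak in all addback libraries, those with an overexpression peak, the 10 strongest of the 16 with SETα peaks alone, and those with no peak. Results of some genes that this rule or the plots would name are not reported here, and those genes are counted but not named or drawn by name. Further members are named in the account of roles, chosen after their values were seen. Shares per library were compared by exact permutation (two-sided), moving labels within isoform or background, and shares of single lists have Wilson 95% intervals. Alternatives varied the window, the peak threshold, the list length, the gene ends and the libraries kept. The overlap code was tested on simulated data, where 200 of 200 planted genes were found and 0 of the rest of 1000 were called. Python 3.11.15, pandas 2.3.3, numpy 2.4.6, scipy 1.17.1 and matplotlib 3.10.9 were used.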

Additional observations from a re-analysis of the deposited data

How the results depend on the processing

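The background difference of members kept its sign under every alternative of window, threshold, list length, gene ends and members, but its size ranged between 6.62 points (−log10 q of at least 5) and 38.6 points (window of 2.5 kb). Its exact permutation p stayed at 0.0556, the smallest possible, which says nothing of stability. The isoform difference ranged from 1.1 points (equal list length) to 21.8 points (starts of the promoter table), with exact permutation p from 0.0556 to 0.5. Leaving out each library in turn gave 32.4 to 34.6 points and 19.9 to 22.1 points. With a replicate block the differences were 33.5 points (exact permutation test, p = 0.125) and 21.0 points (p = 0.5). Deviations of same-numbered libraries correlated across genes between 0 and 0.06. Genes with no listed peak, most genes in every library, counted as 0 there, so this cannot tell whether replicate numbers pair the libraries. Members in both SETα addback libraries fell from 28 to 4 with a −log10 q of at least 5 and to 4 at equal list length. Members in both SETβ addback libraries went from 5 to 3 with a window of 250 bp, to 8 with 2.5 kb, to 3 when the summit had to lie in the window and to 3 with a −log10 q of at least 5. Rad52, in both SETα overexpression libraries, was lost with a −log10 q of at least 5, with a q of at most 0.05, at equal list length and without chromosome 6 (0 members each), and 2 genes were counted with partner genes added. The SETα overexpression IDR list held 1 member with a window of 2.5 kb and 1 with the starts of the promoter table, an alternative chosen after seeing the data. The cause of these changes was not tested. With 2 libraries a group and unknown read depth, a missing peak is not evidence that SET was absent.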

Other observations

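The SETα addback libraries had 34 and 32 inner peaks over all members, the SETβ addback libraries 3 and 19, the SETα overexpression libraries 3 and 15 and the SETβ overexpression libraries 2 and 5. Pole4, an accessory subunit of polymerase epsilon on chromosome 6, had inner peaks in all 4 overexpression libraries, at positions between 82625933 and 82626751. Their highest −log10 p was 2.69 and 3.89 with SETα and 4.12 and 4.24 with SETβ. SETα addback libraries had inner peaks from 82625103 to 82626444, with highest values of 7.12 and 4.39, and SETβ addback libraries listed none there. Pole4 was chosen after its values were seen. Of the 15 inner peaks of SETα overexpression replicate 2, 10 lay in Rad52.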
